A study of Mus musculus with 8 samples.

Results

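The 4 mature miRs cut from the hairpins of miR-140 and miR-455 were examined: miR-140-5p, miR-140-3p, miR-455-5p and miR-455-3p. They were picked by name among the 1079 murine miRs on the array, 310 of which were detected on all 8 arrays by the calls in the scanner files. The study states a larger number of miRs detected in all samples, and the call behind that number is not given in the sources used here. All 4 arms passed the filter. Callus tissue came from the femurs of CD-1 mice at day 7 after osteotomy. The Nonunion group (P13 to P16, n = 4) had a gap of 1.8 mm with the periosteum stripped on both sides of it. The Union group (P17 to P20, n = 4) had a gap of 0.25 mm with the periosteum left in place. In both groups the bone was held by an intramedullary pin and a metallic clip, under xylazine and ketamine anesthesia, and the animals were adult mice of both sexes. The age and sex behind each array are not given in the sources used here. The groups thus differed in gap size and in periosteal injury, and these cannot be told apart. At day 7 neither group had yet healed or failed to heal, so the group names stand for the outcome that each procedure is known to lead to.

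A miR is a short RNA that guides a silencing complex to messenger RNAs, and bases 2 to 8 at its 5′ end, the seed, do most of the pairing. Each hairpin precursor holds a 5p and a 3p arm, and either can be kept as the mature miR. miR-140 and miR-455 are best known from chondrocytes, where the cartilage transcription factor Sox9 drives both. Mir140 lies within Wwp2, which encodes an E3 ubiquitin ligase, and Mir455 lies within Col27a1, which encodes a fibrillar collagen of cartilage. In a healing fracture, cartilage forms in the callus before it is replaced by bone. The comparison therefore asks whether these cartilage miRs differ in signal between callus of a gap that heals and callus of a gap that does not.

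The mature sequences are shown because the seeds set which messenger RNAs each arm can pair with, and because the array tells miRs apart by such letters alone. They are RefSeq sequences on build GRCm38.p6, 5′ to 3′, with the seed in capitals. The arm miR-140-3p lies at chr8:107551288-107551308, miR-455-5p at chr4:63256867-63256888 and miR-455-3p at chr4:63256904-63256924, all on the plus strand.
mmu-miR-140-3p: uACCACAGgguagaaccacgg
mmu-miR-455-5p: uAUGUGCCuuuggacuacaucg
mmu-miR-455-3p: gCAGUCCAcgggcauauacac
The Mir140 hairpin, at chr8:107551244-107551313 on the plus strand, is shown with miR-140-3p in capitals (bases 45 to 65 of 70).
Mir140 hairpin: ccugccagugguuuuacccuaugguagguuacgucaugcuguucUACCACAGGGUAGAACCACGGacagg
The 3 seeds all differed. Among the 840 miRs of the array with a mature sequence in the RefSeq table, no other miR carried any of the 3 seeds. In the table itself, miR-497b shares the seed of miR-140-3p and miR-5129-3p that of miR-455-5p. Each of the 4 arms was read by its own pair of probes.

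The signal of a miR is the sum that the scanner software makes over its probes, after background subtraction, in arbitrary units. Values of different miRs cannot be set against each other, since each probe responds in its own way. miR-140-5p had merged signals of 644.6, 473.4, 969.4 and 1890 on P13 to P16, and of 285.6, 237.3, 489.6 and 421.2 on P17 to P20. miR-140-3p had 586.3, 413.5, 858.6 and 1486 in the Nonunion group and 274.6, 208.3, 446.7 and 296.0 in the Union group, in the same order of arrays. In both arms P16 was the highest of all arrays and P18 the lowest, and the groups overlapped by a single pair, P14 lying below P19.

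miR-455-5p had merged signals of 24.7, 11.8, 30.8 and 44.2 on P13 to P16 and of 10.6, 8.58, 20.2 and 9.10 on P17 to P20. miR-455-3p had 50.7, 35.5, 63.9 and 100.9 in the Nonunion group and 27.6, 29.4, 39.9 and 22.3 in the Union group. P16 was again the highest, and the Union array P19 was again above the Nonunion array P14. The lowest signal called detected on any array ranged from 2.16 to 2.39 units. The error that the software gives with each merged signal was 7.14% to 7.20% for miR-140-5p, 8.06% to 8.27% for miR-140-3p, 8.59% to 11.9% for miR-455-3p and 9.02% to 19.4% for miR-455-5p. On the log2 scale the median error was 0.0997 for miR-140-5p, 0.113 for miR-140-3p, 0.188 for miR-455-5p and 0.137 for miR-455-3p, well below the spread between the arrays of 1 group given next.

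**Figure D1:**
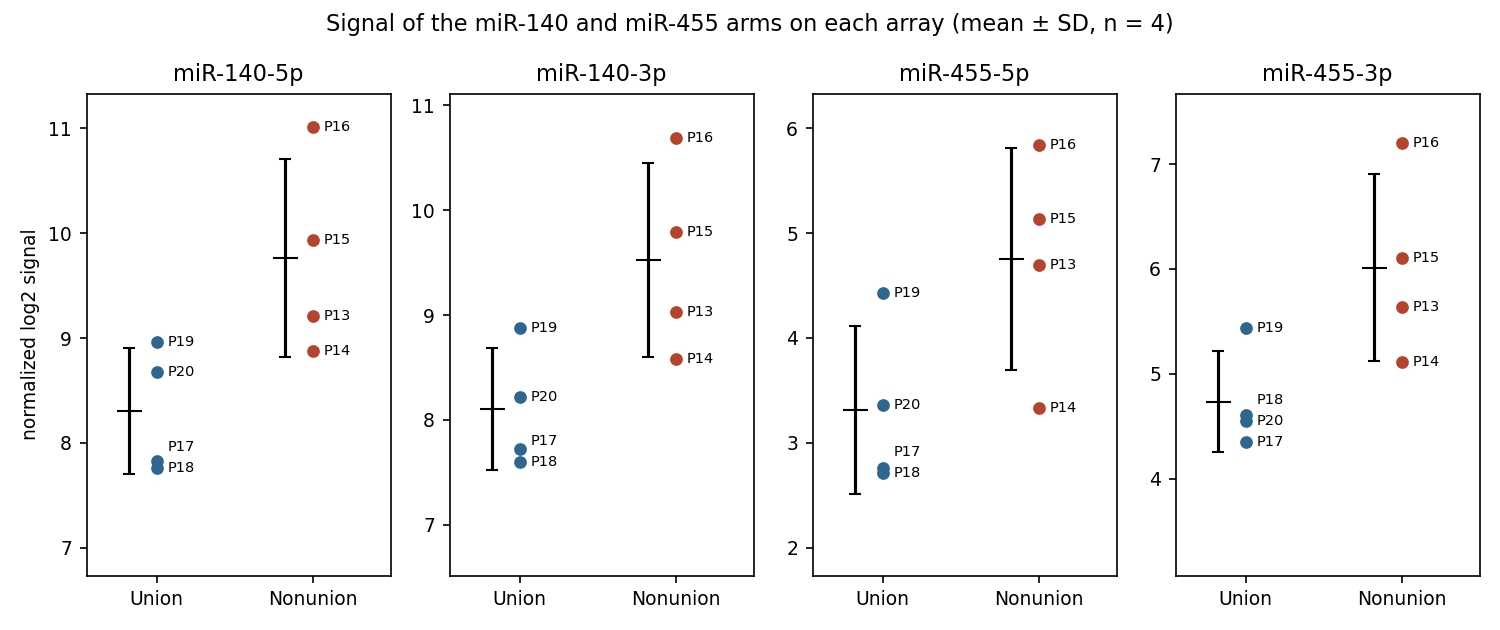
Normalized log2 signal (y axis, log2 of quantile normalized units) of the 4 arms on each of the 8 arrays, by group on the x axis. Points are arrays, and the bar beside them is the group mean ± SD (n = 4). P16 is the highest in every panel and P14 lies below P19 in every panel.

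After log2 transformation and quantile normalization, the mean signal of all 4 arms was higher in the Nonunion group, by similar amounts. For miR-140-5p the Nonunion mean was 9.76 ± 0.94 and the Union mean 8.31 ± 0.60 (each SD over n = 4). These means were 1.46 apart on the log2 scale (SE 0.48, 95% CI 0.37 to 2.54), which is an FC of 2.74. miR-140-3p was 9.52 ± 0.93 against 8.10 ± 0.58, a log2 difference of 1.42 (SE 0.47, 95% CI 0.36 to 2.49) and an FC of 2.68. In each arm 15 of the 16 pairs of a Nonunion and a Union array had the Nonunion array above.

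The differences of the miR-455 arms were of a similar size. miR-455-5p was 4.75 ± 1.06 against 3.31 ± 0.80, a log2 difference of 1.44 (SE 0.56, 95% CI 0.17 to 2.70) and an FC of 2.71, with 14 of 16 pairs in this order. miR-455-3p was 6.01 ± 0.89 against 4.73 ± 0.48, a log2 difference of 1.28 (SE 0.44, 95% CI 0.28 to 2.27) and an FC of 2.43, with 15 of 16 pairs in this order. Sorted by log2 difference, the 4 arms took the adjacent ranks 12 to 15 of 310 miRs. The median difference of all 310 was 0.15.

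None of the 4 differences passed the adjusted threshold without weights or a block. The limma p values, adjusted after Benjamini-Hochberg over the 310 miRs, were 0.288 for both miR-140 arms and 0.313 for both miR-455 arms. When 343 miRs were tested, those detected on all arrays of either group, limma gave an adjusted p of 0.313 for each arm. Unadjusted limma p values were 0.0143 for miR-140-5p, 0.0145 for miR-140-3p, 0.0307 for miR-455-5p and 0.0173 for miR-455-3p. The exact permutation test over the 70 arrangements of the arrays, two-sided, gave p = 0.0571 for 3 of the arms and p = 0.0857 for miR-455-5p, where 0.0286 is the smallest value that 4 arrays against 4 allow. All 4 arms had an unadjusted limma p under 0.05 with an FC of at least 2, a combination that 5.48% of the tested miRs reached in the same direction. An FC of at least 2 in that direction, whatever the p, was reached by 7.1%. None of the 4 arms had groups free of overlap, which 1.29% of the miRs showed in that direction. An unadjusted p under 0.05 was reached by 9.68% of the miRs in that direction and by 13.9% in either. The adjusted threshold was passed by 0.323%, which is 1 miR. Since the miRs were chosen with results of these arrays known, and both miR-140 arms had been selected by the study from these arrays, the count of 4 of 4 is not independent evidence of their direction.

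No single array decided the direction, but P16 carried part of the size. Without P16 the log2 differences were 1.02 for miR-140-5p, 1.02 for miR-140-3p, 1.02 for miR-455-5p and 0.88 for miR-455-3p. That of miR-455-5p then had an unadjusted limma p above 0.05, as it also had without P13, P15, P17, P18 or P20. Without P14, the lowest Nonunion array, they were 1.76, 1.74, 1.93 and 1.56. Limma was also run with a weight for each array estimated from the data, from 0.29 for P20 to 2.87 for P15. P19, the Union array above P14 in every arm, had a weight of only 0.31. With these weights the adjusted limma p values of the 4 arms fell below the threshold (0.0283 for 3 arms and 0.0314 for miR-455-3p). The same weights raised the number of miRs called over all 310 from 1 to 89. A normexp background correction left 1.33 and 1.25 for the miR-140 arms but 0.33 for miR-455-5p and 0.55 for miR-455-3p. This correction adds an offset of 50 units to every spot, and the mean spot signals of the miR-455 probes ran from 7.02 to 215.3 units.

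**Figure D2:**
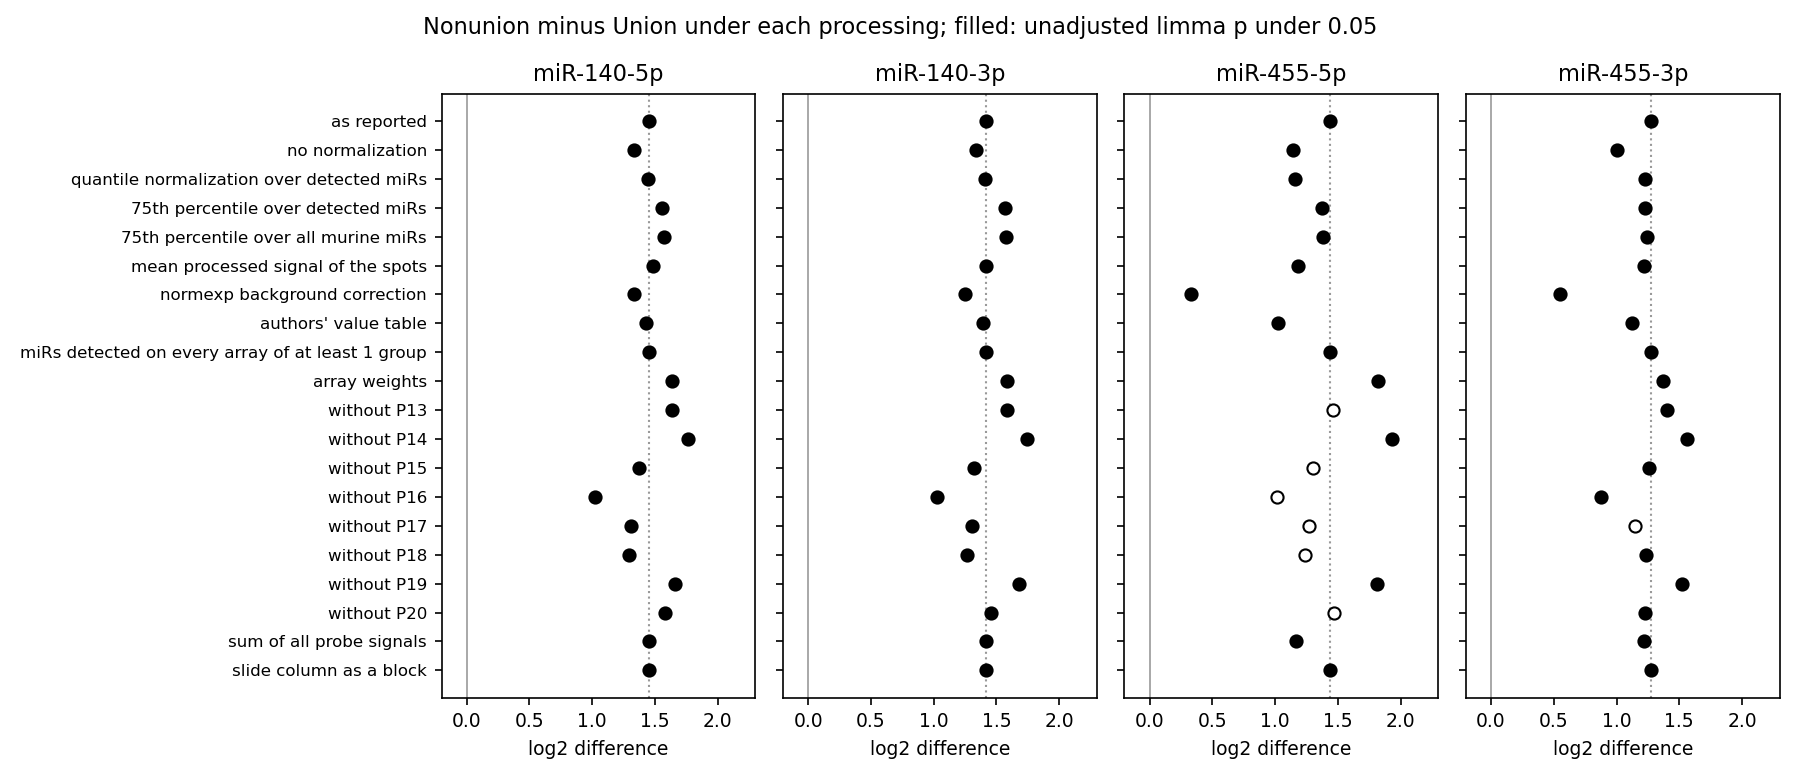
Log2 difference, Nonunion minus Union (x axis), of each arm as reported (top line, dotted line) and under each other processing (y axis). Filled points have an unadjusted limma p under 0.05. All points are above 0, and the miR-455 arms are lowest with normexp, at 0.33 and 0.55.

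The slide held the Nonunion arrays in 1 row and the Union arrays in the other, so row and group cannot be told apart. Each of the 4 columns of the slide held 1 array of each group. Within the columns the Nonunion array was above the Union array in 4 of 4 for every arm. These pairs are among the 16 pairs counted above, so they are not separate evidence. The share of all 310 miRs with this order in every column was not counted. The log2 difference in columns 1 to 4 was 1.38, 1.12, 0.98 and 2.34 for miR-140-5p, and 1.31, 0.98, 0.92 and 2.48 for miR-140-3p. It was 1.93, 0.62, 0.70 and 2.49 for miR-455-5p, and 1.29, 0.50, 0.67 and 2.65 for miR-455-3p. The column with P16 and P20 gave the highest value for all 4 arms. With the column as a block in limma, the adjusted p was 0.038 for the 5p and 0.0436 for the 3p arm of miR-140, below the threshold, and 0.0674 for miR-455-5p and 0.0968 for miR-455-3p, above it. The same block raised the number of miRs called over all 310 from 1 to 13. No source used here says that the arrays of a column shared anything but their place, and this fit was added after seeing the data. The net signal of the negative control probes was 51.2 to 55.0 units in the Nonunion group and 46.9 to 47.9 in the Union group (exact permutation p = 0.0286, the smallest possible). The summed signal of all murine miRs was 183589 to 279341 units in the Nonunion group and 227941 to 360063 in the Union group (exact permutation p = 0.229). Between 324 and 366 miRs were detected per array in the Nonunion group and between 361 and 391 in the Union group (exact permutation p = 0.114). The array P16, the highest for all 4 arms, had the lowest summed signal and the fewest detected miRs, and P17, with the highest summed signal and the most detected miRs, was among the 2 lowest for each of them after normalization.

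Across the 8 arrays the arms ran opposite to these measures. The correlation of the normalized signal with the summed signal was r = -0.88 for miR-140-5p, -0.87 for miR-140-3p, -0.88 for miR-455-5p and -0.87 for miR-455-3p (exact permutation p between 0.0025 and 0.0061, Benjamini-Hochberg adjusted p = 0.00613 for each over 8 relations). Spearman's rho was between -0.90 and -0.86 (exact permutation p between 0.00456 and 0.0107, adjusted p between 0.0193 and 0.0214). With the number of detected miRs, r was between -0.94 and -0.83 (exact permutation p between 0.00134 and 0.00432) and rho between -0.79 and -0.75 (exact permutation p between 0.0244 and 0.0361, adjusted p between 0.0325 and 0.0361). Without P16 and P17, the arrays farthest from the median, r with the summed signal was between -0.87 and -0.75 (exact permutation p between 0.0292 and 0.0917). On the same 6 arrays, r with the number of detected miRs was between -0.85 and -0.57 (exact permutation p between 0.05 and 0.253), so these relations rested in part on those arrays. Within groups, each group's mean being removed, r with the summed signal was between -0.87 and -0.84 (exact permutation p within groups between 0.00347 and 0.0174). For the number of detected miRs it was between -0.91 and -0.72 (exact permutation p within groups between 0.0174 and 0.0903). The weakest of these was miR-455-5p, with p above 0.05. Without any normalization between arrays the correlations with the summed signal were between -0.84 and -0.76.

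Markers of other tissues also varied with these arrays. Of 6 miRs of skeletal muscle, such as miR-1a-3p and miR-206-3p, 4 were tested, 3 with a lower and 1 with a higher mean in the Nonunion group and none with an unadjusted limma p under 0.05. The muscle miRs made up 8.09% to 22.3% of the summed signal in the Nonunion group and 13.9% to 26.6% in the Union group, with the lowest share on P16 and the highest on P17. Their summed normalized signal was 23692 to 57217 and 38864 to 64562 units. All 4 miRs of stromal cells were higher in mean in the Nonunion group, 2 of them with an unadjusted limma p under 0.05, and their summed normalized signal was 2605 to 4033 against 1761 to 3383 units. The summed normalized signal of the 4 arms themselves was 897 to 3925 units in the Nonunion group and 442 to 1033 in the Union group. The sums in units given next are also of normalized signals, whereas the percent shares above are of merged signals without normalization. Of 4 miRs of myeloid cells and leukocytes 3 were tested, all 3 lower in mean in the Nonunion group, 1 with an unadjusted limma p under 0.05 (3377 to 4831 against 4888 to 22220 units), while miR-223-5p was detected on no array. Of 4 miRs of red blood cells 3 were on the array under the listed name (3430 to 10128 against 3014 to 9722 units). All 3 had a lower mean log2 signal in the Nonunion group, by differences from -0.43 to -0.0087. Both arms of miR-126, of endothelium, were tested and were lower in mean in the Nonunion group (2236 to 2608 against 2529 to 3619 units). None of the red blood cell and endothelium miRs had an unadjusted limma p under 0.05. The part of tissue make-up in the results for miR-140 and miR-455 was not tested. In bulk tissue, fewer cells of a type and less RNA per cell cannot be told apart.

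Each arm was read by 2 probes, each printed on 20 spots per array. Both probes of every arm had a higher mean in the Nonunion group, and the paired probes ran nearly in parallel. On arrays scaled to the 75th percentile of detected miRs, the log2 difference was 1.55 by A_54_P1075 and 1.56 by A_54_P1076 for miR-140-5p, and 1.65 by A_54_P3307 and 1.54 by A_54_P3308 for miR-140-3p. It was 1.20 by A_54_P3633 and 1.104 by A_54_P3634 for miR-455-5p, and 1.39 by A_54_P2936 and 1.14 by A_54_P2937 for miR-455-3p. The brighter and the dimmer probe of an arm thus gave the same direction and a similar size. For the dimmer miR-455 probes this rested on Union signals that were mostly near background. The correlation between the paired probes over the 8 arrays, which share their RNA and hybridization, was 0.9999 for miR-140-5p, 0.999 for miR-140-3p, 0.983 for miR-455-5p and 0.978 for miR-455-3p.

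The probes differed in how far they stood above background. All 160 spots of each miR-140 probe were well above background. The brighter miR-455 probes were so on 155 of 160 spots (A_54_P3634) and on 160 of 160 (A_54_P2937), and the dimmer ones on 62 of 160 (A_54_P3633) and on 76 of 160 (A_54_P2936). By array, A_54_P3633 had 13, 1, 20 and 20 such spots on P13 to P16. On P17 to P20 the counts were 0, 2, 6 and 0. For A_54_P2936 they were 20, 1, 20 and 20, and 0, 1, 14 and 0. The weak spots of the dimmer probes thus lay mostly in the Union group and on P14. No spot was saturated. Mean spot signals of A_54_P3633 were 19.1, 10.2, 23.8 and 35.2 units on P13 to P16 and 10.7, 9.70, 15.1 and 7.02 on P17 to P20. Those of A_54_P3634 were 45.2, 31.0, 56.5 and 81.4, and 27.8, 22.6, 37.8 and 24.0. P16 was highest by either probe, and P20 or P18 lowest.

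**Figure D3:**
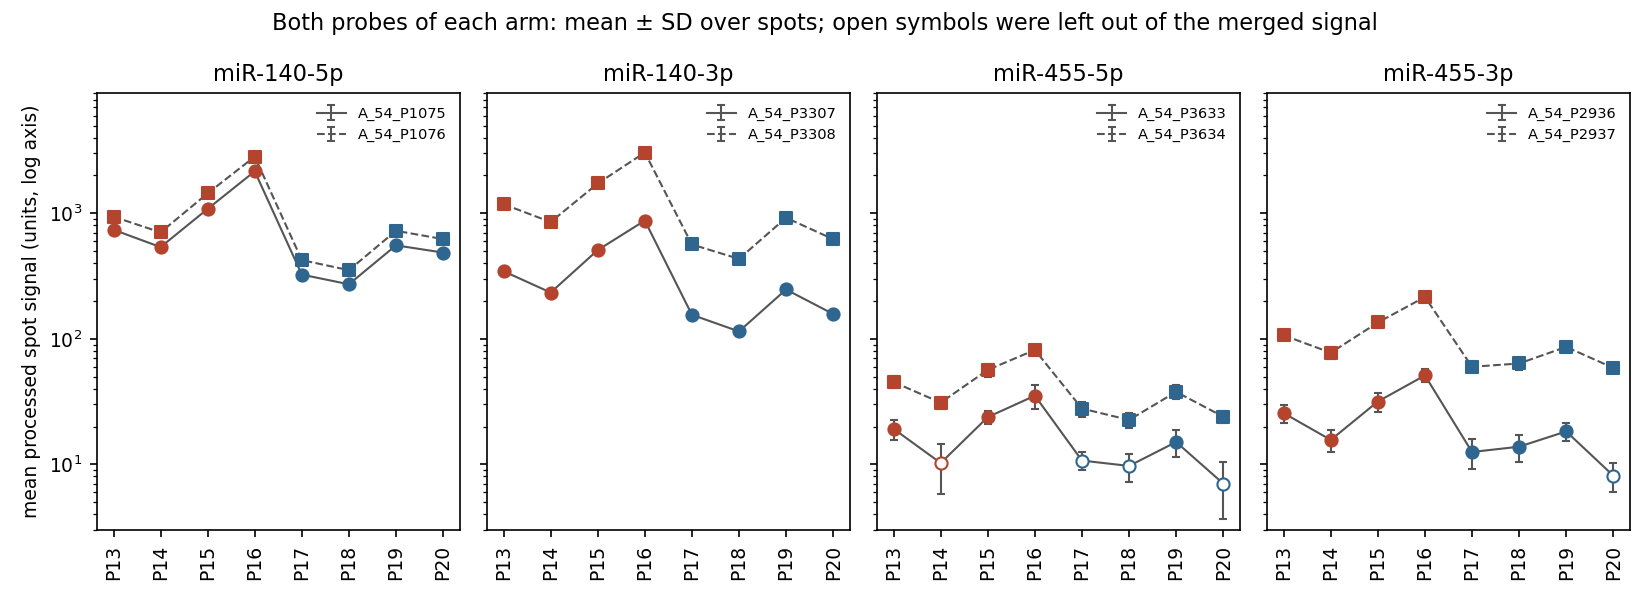
Mean processed signal of the spots (y axis, units, log axis) of both probes of each arm on the 8 arrays (x axis), red for Nonunion and blue for Union. Bars are the SD over the spots of 1 array, and open symbols mark probes that were left out of the merged signal. The 2 probes of an arm follow the same course, and 1 probe of miR-455-5p is open on P14, P17, P18 and P20.

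The merged signal did not always hold both probes. The software leaves out a probe it calls not detected, and the merged signal of miR-455-5p lacked A_54_P3633 on 4 arrays, P14 in the Nonunion group and P17, P18 and P20 in the Union group. The probe would have added 24.8%, 27.8%, 30.1% and 22.7% of the sum of both probes on these arrays. The merged signal of miR-455-3p lacked A_54_P2936 on P20, which was 12.2% of the sum. Both miR-140 arms held both probes on all 8 arrays. Over all detected miRs with several probes, 26.1% to 29.7% per array had a merged signal other than the sum of their probes. With all probes summed, the log2 difference of miR-455-5p was 1.17 (limma, adjusted p = 0.257) in place of 1.44, and that of miR-455-3p was 1.22 (limma, adjusted p = 0.257) in place of 1.28. Those of the miR-140 arms stayed at 1.46 and 1.42.

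The ratio of the 5p to the 3p arm of a hairpin was compared next, to see whether the balance of the arms differed between the groups. The ratio itself does not tell which arm is more abundant, as the probes of the arms differ in response. The log2 ratio of miR-140 after quantile normalization was 0.18, 0.30, 0.14 and 0.32 on P13 to P16 and 0.11, 0.16, 0.08 and 0.46 on P17 to P20. The Nonunion mean was 0.24 ± 0.09 and the Union mean 0.20 ± 0.17 (each SD over n = 4). Their gap of 0.03 was smaller than the spread (exact permutation p = 0.743), and without normalization it was -0.0079 (exact permutation p = 0.943). P20 had the highest ratio in either case, and the groups overlapped.

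The log2 ratio of miR-455 was -0.95, -1.78, -0.98 and -1.35 on P13 to P16 and -1.58, -1.89, -1.01 and -1.19 on P17 to P20. The means were -1.26 ± 0.39 and -1.42 ± 0.40, and the difference of 0.16 was smaller than the spread (exact permutation p = 0.571). The lowest ratios, on P14, P17 and P18, were on 3 of the 4 arrays whose miR-455-5p signal lacked a probe. With both probes summed, and without normalization, the ratio was -1.04, -1.17, -1.05 and -1.19 in the Nonunion group and -0.91, -1.26, -0.98 and -1.11 in the Union group. The SD over the 8 arrays was then 0.117, against 0.283 for the merged signals on the same scale, and the group difference was -0.05 (exact permutation p = 0.657) against 0.14 (exact permutation p = 0.514). The sign also turned with the normalization of the same merged signals, to -0.0686 with quantile normalization over detected miRs alone (exact permutation p = 0.857), and in the value table of the authors it was -0.10 (exact permutation p = 0.543). With normexp the difference of the miR-455 ratio was -0.22 (exact permutation p = 0.0286, the smallest possible). That correction adds an offset to every spot, which shrinks the difference of a dimmer signal more. It left a log2 difference of 0.33 for miR-455-5p, the arm with the dimmer probes, and of 0.55 for miR-455-3p. A rise shared by both arms would thus also give a negative value, so the normexp ratio cannot tell arm balance from the offset. A difference in arm balance was thus not shown for miR-140, and for miR-455 its direction turned both with the way the probes were combined and with the normalization.

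**Figure D4:**
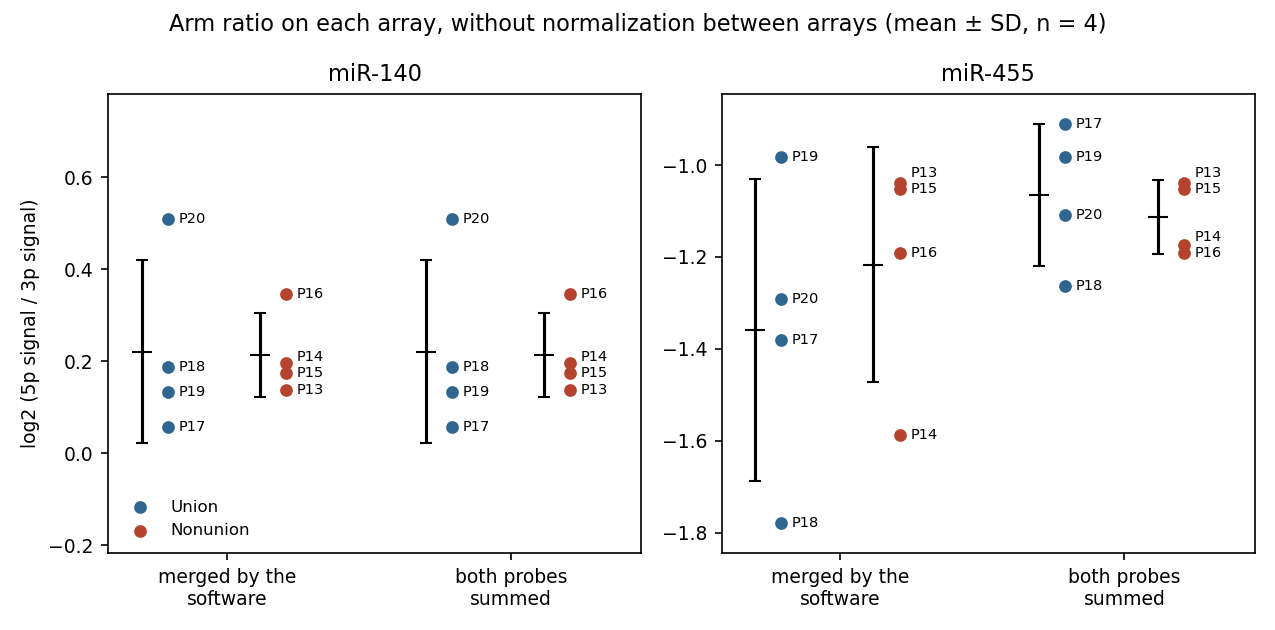
Log2 ratio of the 5p to the 3p signal (y axis) of miR-140 and miR-455 on each array without normalization between arrays, with merged signals and with both probes summed (x axis). Points are arrays, and bars are the mean ± SD (n = 4). For miR-455 the points draw together when both probes are summed, the SD over 8 arrays going from 0.283 to 0.117, and the groups overlap in all cases.

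The 2 arms of each hairpin were set beside the 43 hairpins with both arms detected on every array. The arms of miR-140 had the highest correlation of all 43, r = 0.993 over 8 arrays, where the median hairpin had 0.862, and ranked 3 from the smallest by the SD of the arm ratio, 0.129 against a median of 0.330. The arms of miR-455 ranked 15 by r (0.956) and 24 from the smallest by SD (0.373). With all probes summed they ranked 3 by r (0.987) and 11 by SD (0.152), and miR-140 ranked 2 and 5. Without normalization the ranks by r were 4 for miR-140 and 14 for miR-455. Both arms were at least 2-fold higher in the Nonunion group in 3 of the 43 hairpins, which were miR-140, miR-455 and miR-31.

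The 2 hairpins, which lie on chromosomes 8 and 4, also varied together from array to array. Over the 6 pairs of the 4 arms, r was between 0.950 for miR-140-5p with miR-455-5p and 0.993 for the miR-140 arms (exact permutation p between 2.48e-05 and 0.000223, Benjamini-Hochberg adjusted p between 0.000149 and 0.000223). Spearman's rho was between 0.881 and 1 (exact permutation p between 4.96e-05 and 0.00724, adjusted p between 0.000298 and 0.00724). Between the hairpins the highest was miR-140-3p with miR-455-3p, r = 0.981. The order of the arrays was the same for both miR-140 arms, with P16 first, then P15, P13, P19, P14, P20, P17 and P18.

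This held within the groups and without the extreme arrays. With each group's mean removed, r was between 0.911 and 0.985 (exact permutation p within groups between 0.00174 and 0.00868, adjusted p between 0.00521 and 0.00868). Without the 2 arrays farthest from the median of the first arm, P16 and P18 for 5 pairs and P15 and P16 for the arms of miR-455, r was between 0.908 and 0.983 over the other 6 arrays (exact permutation p between 0.00139 and 0.0125). The arms also share the summed signal of the array, with which each was negatively correlated. In the Nonunion group all arms ran from P14 through P13 and P15 up to P16, and in the Union group P19 was the highest for all 4, so the spread within a group was shared by the 4 arms.

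**Figure D5:**
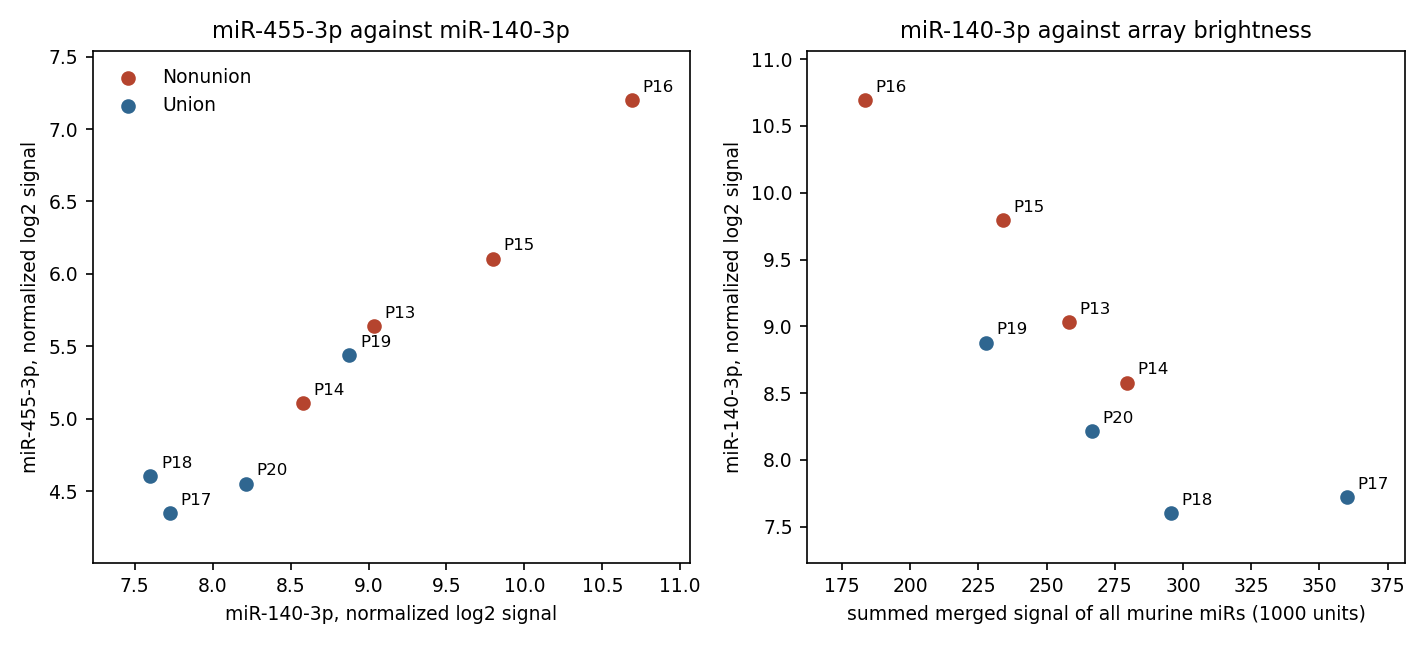
Left, normalized log2 signal of miR-455-3p (y axis) against that of miR-140-3p (x axis) on the 8 arrays (r = 0.981). Right, normalized log2 signal of miR-140-3p (y axis) against the summed merged signal of all murine miRs (x axis, r = -0.87). Red points are Nonunion and blue points Union, and P16 lies at the end of both plots.

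Among the other tested miRs, those most like a hairpin were taken by Pearson's r over the 8 arrays with the mean of its arms. For miR-140 they were miR-320-3p (0.983), miR-152-3p (0.976), miR-503-5p (0.975), miR-199a-3p (0.967) and miR-181b-5p (0.962). For miR-455 they were miR-199a-3p (0.987), miR-199b-5p (0.973), miR-152-3p (0.969), miR-320-3p (0.966) and miR-181b-5p (0.957). The median of the 308 miRs compared was 0.406 for miR-140 and 0.346 for miR-455. The arms of miR-455 ranked 4 (3p) and 6 (5p) of 308 for miR-140, and the arms of miR-140 ranked 2 (3p) and 5 (5p) for miR-455. These correlations are over 8 arrays that share a slide, fall in the Nonunion and Union groups and differ in summed signal. They are given as a description.

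The miRs most alike did not share the size of the difference. miR-320-3p, the most like miR-140, differed by only 0.25 (SE 0.18, limma, adjusted p = 0.387), with signals of 4.71, 4.58, 4.74 and 4.998 on P13 to P16 and 4.41, 4.41, 4.62 and 4.58 on P17 to P20. miR-503-5p, a member of the miR-16 family, differed by 1.08 (SE 0.42, limma, adjusted p = 0.313) and miR-199a-3p, a miR abundant in stromal cells, by 1.01 (SE 0.38, limma, adjusted p = 0.313). miR-199b-5p differed by 0.68, miR-181b-5p by 0.66 and miR-152-3p by 0.62 on the log2 scale. The choice of these miRs depended on the scaling. Without normalization 2 of the 5 stayed among the 5 highest for either hairpin, whereas the arms of the other hairpin ranked 3 and 4 for miR-140 and 1 and 3 for miR-455, with medians of -0.38 and -0.44.

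Other miRs described in chondrocytes or the growth plate had differences in either direction. No expected direction was set for the listed miRs, so these counts do not tell how much cartilage a callus held. The list includes miR-145-5p, which was also counted among the stromal miRs above. Of 17 listed miRs, 15 were tested and miR-138-5p and miR-675-5p were detected on no array. Of the 15, 9 had a higher and 6 a lower mean in the Nonunion group, and their median difference, 0.15, equalled that of all 310 miRs. None passed the adjusted threshold (smallest limma adjusted p = 0.288). An unadjusted limma p under 0.05 was reached by 13.9% of all 310 miRs in either direction and by 2 of the 15, both higher. These were miR-335-5p, which lies in Mest, with a difference of 1.27 (SE 0.42, exact permutation p = 0.0857), and miR-199a-3p.

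miR-335-5p had signals of 8.25, 7.91, 8.62 and 8.34 in the Nonunion group and 7.03, 6.73, 8.25 and 6.03 in the Union group. Its Union array P19 was level with P13, and the other 3 Union arrays lay below all Nonunion arrays. miR-675-3p, from the H19 transcript, differed by 0.69 (SE 0.37, exact permutation p = 0.2). At the low end were miR-483-5p, which lies in Igf2, at -1.03 (SE 0.71, exact permutation p = 0.286), miR-146a-5p, an inflammation-responsive miR, at -0.60 (SE 0.47, exact permutation p = 0.343) and miR-29b-3p, known to target collagen messenger RNAs, at -0.14 (SE 0.21, exact permutation p = 0.486). For miR-146a-5p the Union array P20, at 8.64, stood above the other 7 arrays, which were between 6.27 and 6.68.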

How the data were processed

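Total RNA from callus of 8 CD-1 mice was labelled with Cy3 and hybridised to the 8 arrays of 1 slide. Per the file headers, the spots were read by version 10.10.1.1 of Agilent Feature Extraction, and the output deposited for each array holds background-subtracted intensity values on a linear scale, a merged intensity per miR and detection calls. The quantile normalized log2 values that the authors deposited served as an alternative. Groups came from the sample labels. Replicate numbers follow accession order.

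Merged signals of the 1079 murine miRs were floored at 0.1, log2 transformed and quantile normalized, and the 310 detected on all arrays were compared (limma 3.58.1 in R 4.3.3, two-sided, Benjamini-Hochberg adjustment, threshold 0.05, fold threshold 2). Python 3.11.15 with numpy 2.4.6, pandas 2.3.3, scipy 1.17.1 and matplotlib 3.10.9 did the rest. Permutation tests were exact and two-sided. The fit was tested on simulated data in which the residuals of each miR were shuffled separately. This removed variation that miRs share on an array, so the test does not show how the fit behaves with it. The number of arrays, 4 per group, limits the precision.

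Alternatives were no normalization, quantile normalization over detected miRs, 75th percentile scaling over detected or all murine miRs, mean spot signals, normexp (offset 50) on median signals, the authors' table, a looser detection filter, array weights and leaving out each array. The sum of all probe signals and the slide column as a block were added after seeing the data. Named miRs were the 4 arms, the 5 most correlated with each hairpin, the 3 highest and 3 lowest of the cartilage list with any of unadjusted p under 0.05, and miRs sharing a seed. The members and lists were chosen with earlier results of these data known.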

Additional observations from a re-analysis of the deposited data

Results flagged for a closer look

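In the Union group, the mean normalized log2 signal of the myeloid and leukocyte miRs was 11.997 on P20, whereas the other 3 Union arrays lay between 10.01 and 10.16, which set P20 apart by Dixon's test. Of 44 such groups tested 1 stood out, and about 2.2 would by chance at 1 in 20. P20 was also the array with the highest 5p to 3p ratio of miR-140 and with a probe missing from both merged miR-455 signals. The part of these cells in the miR-140 and miR-455 results was not tested.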

How the results depend on the processing

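Over 30 results and 442 alternative values, 401 were counted as unchanged. For the log2 differences this went by direction and by an unadjusted limma p of 0.05. The adjusted p values that fell below 0.05 with array weights or with the slide column as a block thus counted as unchanged. Probe differences had no p value, and counts of miRs called have no direction. All correlations among the 4 arms kept direction and side of the threshold. Leaving out 1 array gave log2 differences of 1.02 to 1.76 for miR-140-5p, 1.02 to 1.74 for miR-140-3p, 1.02 to 1.93 for miR-455-5p and 0.88 to 1.56 for miR-455-3p. The unadjusted limma p of miR-455-5p rose above 0.05 without P13, P15, P16, P17, P18 or P20 and that of miR-455-3p without P17. The miR-140 arm ratio difference of 0.03 became -0.0079 without normalization and with either 75th percentile scaling, and ran from -0.0150 (without P19) to 0.13 (without P20) when 1 array was left out, with -0.0028 without P16. That of miR-455, 0.16, became -0.0686 with quantile normalization over detected miRs, -0.0345 with mean spot signals, -0.22 with normexp, -0.10 in the authors' table and -0.0476 with probes summed, and ran from 0.0033 to 0.36 when 1 array was left out. Adjusted calls went from 1 to 0 with no normalization, the 75th percentile over all murine miRs or normexp, to 2 with quantile normalization over detected miRs, to 3 with the looser filter to 13 with the slide column as a block and to 89 with array weights, and ran from 0 to 12 when 1 array was left out, with 12 without P19. Unadjusted calls, 43, went to 78 with the slide column as a block and to 159 with array weights and ran from 18 (without P17) to 115 (without P19). Without P16, r with the number of detected miRs was -0.70 for miR-455-5p and -0.71 for miR-455-3p, past the threshold no more. The causes were not tested beyond the probes left out. Signal over background limited the miR-455 arms. No analysis by pairs of animals was made. Replicate numbers only follow accession order, and the labels pair no animal of either group with an animal of the other. Slide and row could not be fitted as blocks, with 1 slide and each group in its own row.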
